A study of Schizosaccharomyces pombe with 6 samples.

Results

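The exocyst is a complex of 8 protein subunits that tethers secretory vesicles to the plasma membrane before they fuse with it. Of the 8 subunit genes, *exo70*, *sec6*, *sec8*, *sec10* and *sec15* each had a probe set carrying that single *S. pombe* gene name in the platform annotation, and these 5 are described here. The genes *exo84*, *sec3* and *sec5* had no probe set under their names and are not analysed here. They were picked by gene name from 2919 *S. pombe* features tested, and the complex itself was chosen with earlier results of these data known. All cells came from a strain of 972 background with the temperature-sensitive *rae1-167* allele of the essential mRNA export factor gene *rae1*, grown in YE4S, a rich yeast extract medium. One group of 3 samples was kept at 25°C, where the allele is permissive, and the other group of 3 at 36°C for 1 h, where it is restrictive. No wild type array was analysed here, so the temperature shift and the loss of Rae1 function cannot be told apart, and the arrays measure total RNA of whole cells without separating nucleus from cytoplasm.

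As background, vesicles leaving the Golgi carry membrane, cell wall enzymes and secreted proteins along actin cables to sites of growth. In fission yeast these sites are the cell ends and, late in the cell cycle, the division site, and the exocyst is found at both. Tethering by the exocyst is followed by fusion through SNARE proteins, and mutants of the complex are best known in this yeast for failing to separate after septation. The subunits differ in what they bind, from the Rab GTPase on the vesicle (Sec15, known from budding yeast) to the lipid PI(4,5)P2 of the target membrane (Exo70 and Sec3, known from budding yeast).

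The 5 subunit mRNAs did not change together at 36°C. The signals of *sec15* and *sec8* fell, by 7.30-fold and 4.34-fold, that of *exo70* rose 2.09-fold, and those of *sec6* and *sec10* did not pass the test. The test was that of limma, a linear model fitted to all 2919 features, with a threshold of 0.05 on the Benjamini-Hochberg adjusted p. By it 3 of 5 subunits changed, 2 downwards and 1 upwards, where 64.0% of all features changed, 51.9% downwards and 12.1% upwards, so the subunits' counts are near the background. Both decreases and the increase were at least 2-fold, which held for 39.8% of features as decreases and 7.26% as increases. The median log2 fold change was -0.66 over all features and -0.43 over the subunits.

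The values are signal intensities, 1 for each probe set and array, which the authors scaled array by array. At 25°C the median *S. pombe* signal of an array was between 1940 and 2620.5, and at 36°C it was between 1147.1 and 1579.5. Background was taken from the probe sets for *S. cerevisiae* genes, as the signal that 90% of them did not exceed, which was 14.0 to 21.3 by array. Every value of the 5 subunits lay above it, the lowest at 6.06 times background. The probe sets of the 8 *S. cerevisiae* exocyst genes read between 0.2 and 12.4, below background on all 6 arrays. The arrays also carry 7 control genes probed at both ends, whose 5′ to 3′ signal ratio is read as a measure of RNA quality. For 3 of them it was lower on every 36°C array than on any 25°C array, with a log2 difference of -1.43 (SRB4), -0.61 (CC338.15) or -0.33 (URA4). The differences of the other 4 lay between -0.16 and 0.17. For each of these 4 the ratio was lowest, among the 36°C arrays, in replicate 1. For GPD3 its log2 value was -2.92 there, against -1.62 and -1.63 in replicates 2 and 3. Replicate 1, whose labels belong to a series of their own, had the lowest median signal at both temperatures and gave the lowest signal in all 10 sets of a subunit and a temperature. Nothing in the labels or methods says that the 3 samples of a temperature came from separate cultures, so p-values measure only the spread between these samples, which may be technical.

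**Figure D1:**
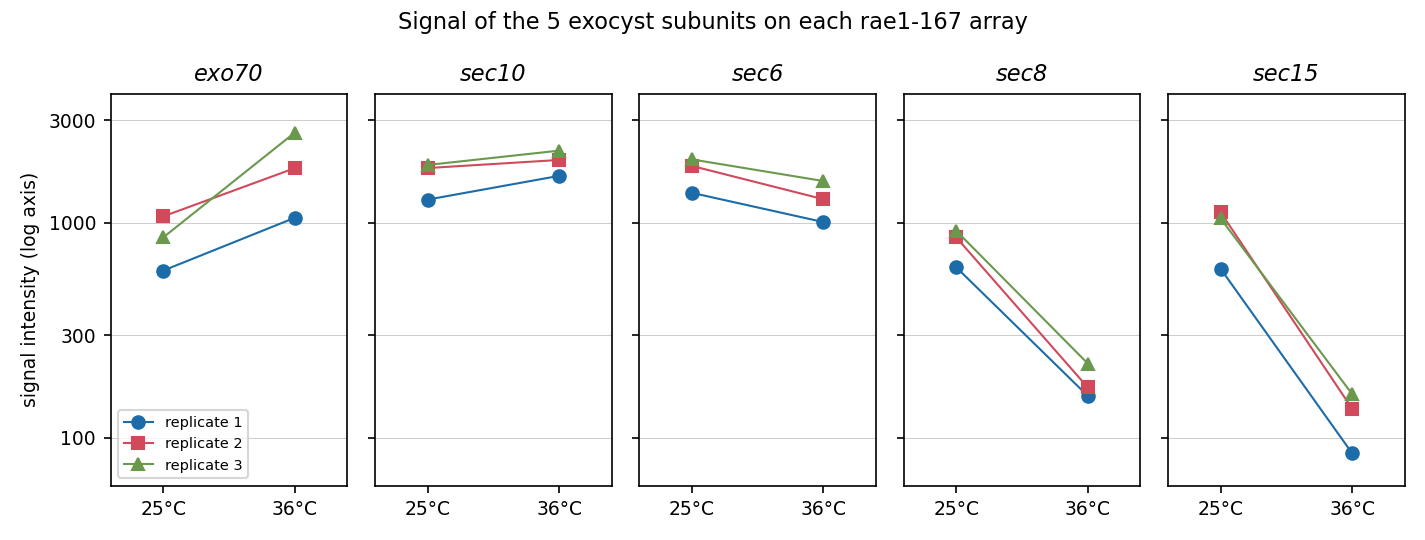
Signal intensity (log axis) of the 5 exocyst subunits at 25°C and 36°C, with 1 point per array and lines joining arrays of the same replicate number. The lines of *sec8* and *sec15* fall steeply and their temperatures do not overlap, those of *exo70* rise, and those of *sec10* and *sec6* end at between 0.700 and 1.29 times where they began.

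The larger decrease was that of *sec15*. Sec15 (SPCC1183.01) is the subunit that binds the vesicle's Rab GTPase in budding yeast. Its signals were 612.6, 1122.3 and 1050.0 at 25°C and 84.9, 136.8 and 160.0 at 36°C for replicates 1, 2 and 3. Every 36°C array thus lay far below every 25°C array, and the mean went from 928 ± 276 (SD, n = 3) to 127 ± 38.5. The log2 fold change was -2.87 (SE 0.33, 95% confidence interval -3.67 to -2.07, adjusted p = 0.000444 from limma). Within replicate numbers the 36°C signal was 0.139, 0.122 and 0.152 of the 25°C signal. Of all features, 6.85% had a lower log2 fold change than *sec15*.

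Sec8 (SPCC970.09) is a core subunit, and the fission yeast *sec8* mutant is known for its failure to cleave the septum between daughter cells. Its signals were 621.9, 856.8 and 918.8 at 25°C and 156.8, 171.7 and 221.9 at 36°C. These groups did not overlap either, as was so, with the 36°C arrays below, for 56.4% of all features. The mean went from 799 ± 157 (SD, n = 3) to 183 ± 34.1, with a log2 fold change of -2.12 (SE 0.21, 95% confidence interval -2.62 to -1.61, adjusted p = 0.000228 from limma). Of all features, 15.8% had a lower log2 fold change.

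The increase was that of *exo70* (SPBC106.20), which encodes a subunit that binds the plasma membrane and takes part, with Sec3, in marking the cell ends for exocytosis in fission yeast. Its deletion strain was one of those in which the study found a raised ratio of nuclear to cell volume in growing cells. The strain was not among the mutants that the study reports as keeping an altered ratio during interphase arrest. The signals of *exo70* were 600.5, 1072.9 and 856.9 at 25°C and 1057.1, 1798.8 and 2632.2 at 36°C. The temperatures overlapped slightly, since replicate 1 at 36°C lay just below replicate 2 at 25°C. Of all features, 15.0% had every 36°C array above every 25°C array. Within each replicate number the 36°C signal of *exo70* was higher, by 1.76-fold, 1.68-fold and 3.07-fold. The mean signal of *exo70* was 1829 ± 788 (SD, n = 3) at the higher temperature against 843 ± 236, which is 1.06 on the log2 scale (SE 0.38, 95% confidence interval 0.14 to 1.98, adjusted p = 0.0477 from limma). Of all features, 93.3% had a lower log2 fold change than *exo70*.

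The call for *exo70* lies close to the threshold. It was lost, at an adjusted p between 0.0522 and 0.126 from limma, when any array but replicate 1 at 36°C was left out. Its log2 fold change was 0.84 without replicate 1 at 25°C, 1.25 without replicate 2 at 25°C, 1.09 without replicate 3 at 25°C, 1.02 without replicate 2 at 36°C, 0.75 without replicate 3 at 36°C and 1.41 without replicate 1 at 36°C. Without replicate 1 at both temperatures the change was 1.18 (adjusted p = 0.000213 from limma). With the replicate number as a block the call stood at an adjusted p = 0.00674 from limma, and no setting turned its direction.

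The other 2 measured subunits changed little on the deposited scale. Sec10 (SPAC13F5.06C), which links Sec15 to the rest of the complex in budding yeast, gave signals of 1283.9, 1800.3 and 1860.6 at 25°C and 1656.1, 1963.4 and 2169.7 at 36°C. The groups overlapped, although each 36°C signal was above that of its own replicate number, by 1.29-fold, 1.09-fold and 1.17-fold. The log2 fold change of *sec10* was 0.24 (SE 0.19, 95% confidence interval -0.23 to 0.70, adjusted p = 0.317 from limma). Sec6 (SPCC1235.10C), a core subunit that contacts the plasma membrane SNARE machinery in budding yeast, gave signals of 1380.4, 1841.4 and 1974.8 at 25°C and 1009.3, 1289.1 and 1566.2 at 36°C. These groups overlapped as well, with the 36°C signal at 0.731, 0.700 and 0.793 of the 25°C signal of the same replicate number. The log2 fold change of *sec6* was -0.43 (SE 0.22, 95% confidence interval -0.96 to 0.10, adjusted p = 0.127 from limma). With the replicate number as a block *sec6* was called lower (adjusted p = 0.00917 from limma), so that 3 subunits were lower, against 59.0% of all features lower and 16.0% higher in that fit, and *sec10* still did not pass (adjusted p = 0.0751).

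The scaling of the arrays bears on the size of these changes and on the sign of 1 of them. When each array was centred on its median, the log2 fold changes were 1.82 for *exo70*, 1.00 for *sec10*, 0.33 for *sec6*, -1.36 for *sec8* and -2.10 for *sec15*, and all 5 passed the test. After quantile normalization they were 2.16, 1.10, 0.47, -0.56 and -1.43 in the same order, and again all 5 passed. Thus *sec6* was lower than at 25°C on the deposited scale and higher under both other scalings, and 3 subunits were then higher and 2 lower. The background moved too, to 39.6% of features higher and 34.5% lower with centring and to 30.3% higher and 33.9% lower with quantile normalization. The signs of *exo70*, *sec10*, *sec8* and *sec15* were the same on all 3 scales. With centring, the temperatures did not overlap for any of the 5 subunits. The share of all features for which this held was not computed, so this lack of overlap is not read as particular to the subunits. The log2 signal of *exo70* relative to the array median was then -1.69, -1.18 and -1.61 at 25°C and -0.12, 0.36 and 0.74 at 36°C. Which scale is nearest to the mRNA content per cell was not tested. The spike-in controls, bacterial and phage transcripts added from outside the cells, differed by a log2 value of 0.06 between the temperatures, and scaling to them left the calls of all 5 subunits as they were. The methods do not say at which step these controls were added, so they cannot be read as a measure of mRNA content per cell.

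**Figure D2:**
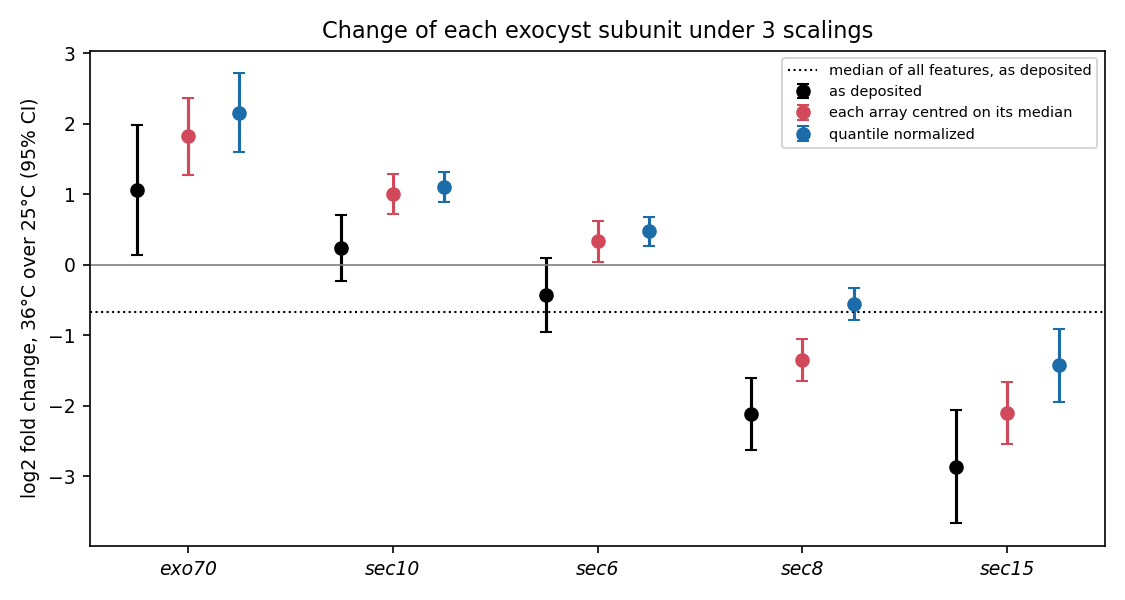
Log2 fold change of each subunit, 36°C over 25°C, with its 95% confidence interval from limma, on the deposited scale and under 2 other scalings of the same 6 arrays. The order of the subunits is the same in each, from *exo70* (1.06, 1.82 and 2.16) down to *sec15* (-2.87, -2.10 and -1.43), whereas *sec6* lies below 0 on the deposited scale and above 0 on the others.

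A comparison of subunits within 1 array does not depend on a factor applied to that whole array, so each subunit was set against the mean log2 signal of the other 4 on the same array. The difference for *exo70* on the 25°C arrays was -0.59, -0.32 and -0.68, and on the 36°C arrays it was 1.45, 1.87 and 2.16. It rose by a log2 value of 2.36, with no overlap between temperatures. The difference for *sec15* was -0.56, -0.24 and -0.31 before the shift and -3.10, -2.78 and -2.89 after it, a difference of -2.55. The shifts of the other 3 were 1.33 for *sec10*, 0.49 for *sec6* and -1.62 for *sec8*, again with no overlap. Quantile normalization, which is no single factor, gave 2.26 for *exo70*, 0.94 for *sec10*, 0.15 for *sec6*, -1.13 for *sec8* and -2.22 for *sec15*. The 5 shifts are tied to each other, since each subunit also enters the mean used for the others. The share of all features without overlap on such a measure was not computed. Among all pairs of features, ratios within an array did not overlap between temperatures for 76.3%, so the lack of overlap is not read as particular to the subunits. In the exact two-sided permutation test each of the 5 shifts gave p = 0.1 (also 0.1 after Benjamini-Hochberg adjustment over the 5), which is the smallest p that 3 arrays against 3 allow, so none can pass. The absolute height of such a difference depends on the probes, and only its change between temperatures is compared.

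**Figure D3:**
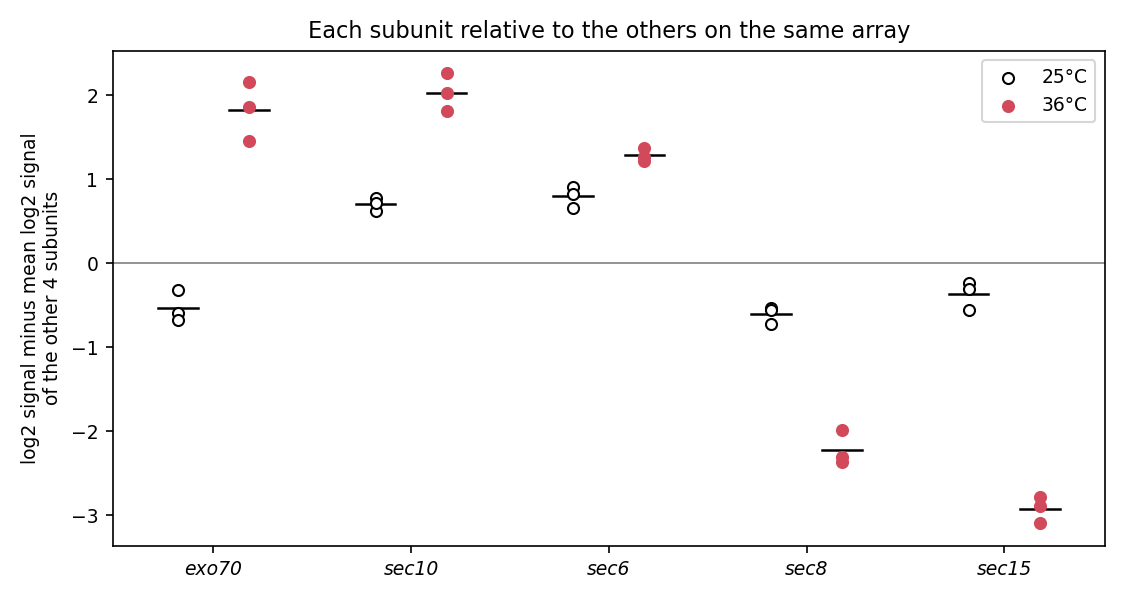
Log2 signal of each subunit minus the mean log2 signal of the other 4 subunits on the same array, with open points for 25°C, filled points for 36°C and a bar for the mean of 3 arrays. The temperatures are apart for all 5 subunits, upwards for *exo70* (by 2.36), *sec10* and *sec6* and downwards for *sec8* and *sec15* (-2.55 for the latter). Among all pairs of features, ratios within an array were apart for 76.3%.

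Taken pair by pair, the ratio of 2 subunits' signals lay in separate ranges at the 2 temperatures for all 10 pairs. Among all pairs of features this was so for 76.3%, so the count of 10 is not far from the background. The largest shift was that of *exo70* over *sec15*, whose ratio changed 15.2-fold, and *exo70* over *sec8* followed with 9.06-fold. The smallest were *sec6* against *sec10* (1.59-fold), *sec8* against *sec15* (1.68-fold) and *exo70* against *sec10* (1.77-fold). Between the closest pair of arrays, the shift of *exo70* against *sec10* was only 0.10 on the log2 scale, and that of *sec8* against *sec15* was 0.31.

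The order of the responses was therefore *exo70*, *sec10*, *sec6*, *sec8* and *sec15*, from the largest increase to the largest decrease. On the deposited scale the 95% confidence intervals of neighbours in that order overlapped for *exo70* and *sec10*, for *sec10* and *sec6* and for *sec8* and *sec15*, but not for *sec6* and *sec8*. These intervals take no account of the arrays that the subunits share, so their overlap does not test the order.

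All 5 subunit genes are long, with RefSeq gene models of 2625 bp for *exo70*, 2857 bp for *sec6*, 3020 bp for *sec10*, 3258 bp for *sec15* and 5918 bp for *sec8*. When the features were split by length into 3 classes of equal size, all 5 belonged to the longest class, of 2386 bp or more. The median log2 fold change was -0.27 in the shortest class, -0.67 in the middle class and -1.09 in the longest, where 59.1% of features were lower. Across 2896 features the rank correlation of gene length with log2 fold change was -0.23, a description over genes that share the same 6 arrays. Length and the 5′ to 3′ ratio of SRB4, CC338.15 and URA4 both moved with the decreases, and their part in those of *sec8* and *sec15* was not tested.

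The neighbouring genes, looked up after the subunits' values had been seen, did not share the subunits' changes in a uniform way. Of the 10 protein-coding genes next to a subunit gene, 4 had a named probe set. All 4 passed the test, as did 64.0% of all features. Their values are on the deposited scale, where the median of all features was -0.66, and other scalings of them were not examined. The cyclin gene *cdc13*, next to *exo70*, fell (log2 fold change -0.76, adjusted p = 0.0178 from limma) where *exo70* rose. That decrease is close to the median of all features. The gene *get4*, next to *sec15*, rose (0.36, adjusted p = 0.0186) where *sec15* fell. The ubiquitin ligase gene *brl2*, whose RefSeq model overlaps that of *sec8*, fell (-2.76, adjusted p = 3.7e-05 from limma), as *sec8* did. The gene *hif2*, whose model overlaps that of *sec6*, fell (-1.95, adjusted p = 0.000299 from limma). The models of *sec15* and *sec10* overlap those of SPCC1183.02 and *mpd1*, which had no named probe set. Whether the probes of these 4 subunits also bind transcripts of the overlapping genes was not tested.

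The genes that act with the exocyst were taken from lists drawn up from general knowledge. In all, 65 genes of 9 lists were measured, of which 34 fell, 3 rose and 28 were not called by limma, with a median log2 fold change of -0.61, against -0.66 for all features. They are to be read beside the shares of all features, 51.9% lower and 12.1% higher. The direction depended on the scale for 5 of the genes named below. After centring *ypt3* (0.06), *ypt2* (0.16) and *act1* (0.73) lay above 0, after quantile normalization *vps16* did (0.13, from -1.29 on the deposited scale), and *sec2* did after both. The other list genes named below kept their sign on all 3 scales.

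Of 9 genes of vesicle docking and fusion at the plasma membrane, 6 fell and 0 rose on the deposited scale (limma, the same test), with a median of -0.49. After centring 2 fell and 3 rose (median 0.28), and after quantile normalization 3 fell and 2 rose. The largest decrease was that of *sec1*, the partner protein of the plasma membrane syntaxin, whose log2 fold change was -2.68 and whose signal dropped from 964 ± 279 (SD, n = 3) to 155 ± 58.5. It was followed by the SNARE gene *sec9* (-1.95), whose signal went from 2899 ± 281 to 746 ± 17.5, and by the Rab GTPase gene *ypt3* (-0.70). The Rab Ypt3 and the Rab Ypt2, the counterpart of the budding yeast Rab that Sec15 binds, serve the last steps of secretion. The log2 fold change of *ypt2*, a gene picked after its value was seen, was -0.61. The exocytic Rab activator gene *sec2*, also picked in this way, did not pass the test (-0.20).

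Of 12 genes of actin cable transport, 5 fell and 0 rose on the deposited scale, with a median of -0.45, whereas 3 fell and 5 rose after centring (median 0.31) and 3 fell and 1 rose after quantile normalization. The decreases included *bud6* (-3.57), an actin nucleation cofactor at the cell ends, and the type V myosin genes *myo52* (-2.56) and *myo51* (-1.77), whose proteins run on actin cables. The signal of *bud6* dropped from 697 ± 105 (SD, n = 3) to 61.5 ± 22.7, and that of *myo52*, the main vesicle motor, from 1396 ± 359 to 235 ± 49.2. The actin gene *act1*, picked after its value was seen, differed by -0.04, within a 95% confidence interval of -0.28 to 0.21. All 3 phosphoinositide kinase genes did not pass the limma test, although 2 of them had an unadjusted p under 0.05 and were lower with the replicate block. After centring 0 of the 3 fell and 1 rose, and the same counts held after quantile normalization. Of 12 genes of cell wall enzymes that reach the surface by secretion, 4 fell and 0 rose, with a median of -0.56, and 8 fell with the replicate block. After centring 3 fell and 4 rose (median 0.20), and after quantile normalization 4 fell and 2 rose. Among those that fell on the deposited scale were the glucan synthase genes *bgs2* (-2.89) and *ags1* (-1.52) and *eng1* (-1.24), a glucanase of cell separation that depends on the exocyst to reach the septum.

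The other tethering complexes of the secretory and vacuolar pathways were set beside the exocyst. The COG complex, which works within the Golgi and is related to the exocyst in structure, also had members that moved apart. Of its 7 measured genes, 4 fell, 1 rose and 2 did not pass, with a median of -0.45, whereas 2 fell and 3 rose after centring and 1 fell and 3 rose after quantile normalization. The signal of *cog3* rose from 882 ± 264 (SD, n = 3) to 7923 ± 1456 (3.20 on the log2 scale), whereas *cog6* (-1.97) and *cog1* (-1.95) fell. Of 8 genes of the TRAPP complexes, 7 fell and 1 rose, with a median of -1.30, and *bet3* (-2.75) and *bet5* (-2.67) fell most. After centring 6 fell and 1 rose, and after quantile normalization 4 fell and 1 rose (median -0.32). The gene that rose, *trs31*, was not above background at 25°C, with a signal of 11.3 ± 0.611 (SD, n = 3), and reached 59.5 ± 10.7 at 36°C. Set against the background level of the 25°C arrays, it was at least 3.21-fold higher at 36°C. Of the 4 genes of the GARP complex, *vps54* (-1.47) and *vps52* (-0.91) fell, *vps51* rose (1.00) and 1 did not pass, whereas 1 fell and 2 rose after centring and 0 fell and 2 rose after quantile normalization. Of 8 genes of the HOPS and CORVET complexes 4 fell and 0 rose, with *vam6* at -1.80, *pep3* at -1.60 and *vps16* at -1.29, whereas 3 fell and 3 rose after centring and 1 fell and 4 rose after quantile normalization. Of the Dsl1 complex and Golgi tethers both measured genes, *uso1* (-2.39) and *sec39* (-2.13), fell. On the deposited scale, members that fell and members that rose were thus found in the exocyst, COG, GARP and TRAPP alike. The log2 fold changes ran from -2.87 to 1.06 in the exocyst, -1.97 to 3.20 in COG and -1.47 to 1.00 in GARP. Under both other scalings HOPS and CORVET genes also moved both ways, and after quantile normalization 0 GARP genes fell.

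**Figure D4:**
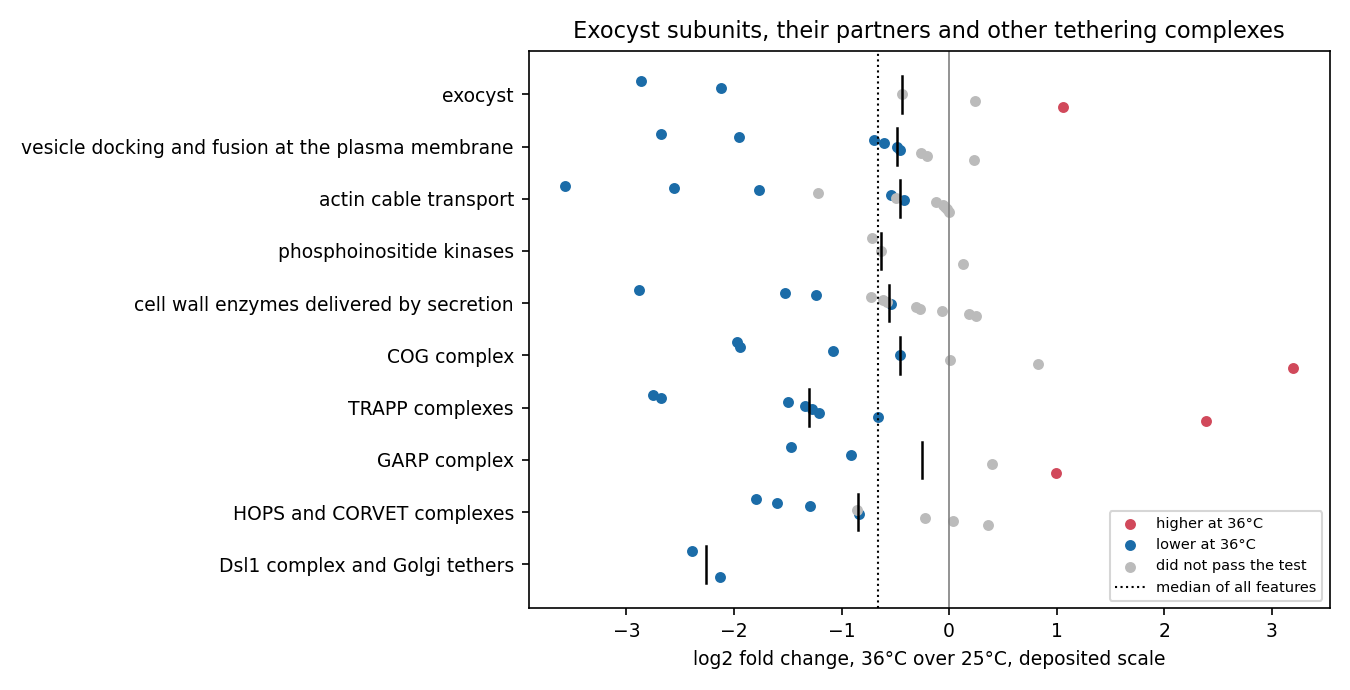
Log2 fold change, 36°C over 25°C on the deposited scale, of each measured gene of the exocyst and of 9 other lists, with a black bar at each list's median and a dotted line at the median of all features (-0.66). The exocyst (5 genes, -2.87 to 1.06) has coloured points on both sides of 0, as have COG, GARP and TRAPP. Most coloured points are blue, for lower. With the grey points included, only the lists of actin cable transport and of the Dsl1 complex and Golgi tethers lie wholly below 0. The point of *trs31* in TRAPP rests on a 25°C signal not above background.

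The features whose 6 log2 signals followed those of *exo70* most closely were found among 2861 others above background on all arrays. By Pearson's r over the 6 arrays they were *dsd1* (0.99, log2 fold change 0.37), *mdm34* (0.99, log2 fold change 0.92), *are1* (0.99, log2 fold change 0.69), *tco89* (0.99, log2 fold change 0.47) and *atg13* (0.98, log2 fold change 0.99), of which *mdm34* and *atg13* passed the test. For *sec15* they were *npl4* (-1.81), *mcs6* (-1.30), *alg11* (-2.40), *spt5* (-2.60) and *vph1* (-1.27), each with an r that rounds to 1.00 and each lower. These correlations are descriptions over 6 arrays that share 2 temperatures and their scaling, and with 51.9% of all features lower at 36°C many genes resemble *sec15*.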

How the data were processed

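Total RNA was labelled by the authors and hybridised to 6 GeneChip Yeast Genome 2.0 arrays, 1 per sample, and the deposited values are linear signal intensities from GCOS with default settings and global scaling, per the study's methods. No scaling target or detection call was used here, and the number of arrays limits the precision. Of 10928 probe sets, 2917 named 1 *S. pombe* gene and 20 several, and 5177 carried no gene name. Signals under 1 were set to 1, and log2 signals of probe sets of 1 gene were averaged (14 genes), which gave 2919 features. For each feature the 36°C and 25°C arrays were compared in R 4.3.3 with limma 3.58.1, using lmFit and eBayes without a block, and features with a Benjamini-Hochberg adjusted two-sided p under 0.05 were called. The exact permutation test and figures used Python 3.11.15 with scipy 1.17.1, pandas 2.3.3, numpy 2.4.6 and matplotlib 3.10.9. The limma step was tested on simulated data with independent noise and few changed features. That setting is simpler than these arrays, so its outcome is not used here.

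The labels give both temperatures the same replicate numbers. Over 2862 features, what remained of each array after its temperature mean was subtracted correlated at 0.54, 0.45 and 0.43 within numbers 1, 2 and 3, and on this ground the replicates were treated as pairs in the blocked fit. Replicate 2 at 25°C correlated at 0.48 with replicate 3 at 36°C, more than with replicate 2 at 36°C. The correlations thus set replicate 1 apart but do not settle the pairing within numbers 2 and 3, which the blocked fit assumes. Gene names came from the platform annotation, and loci, gene lengths and neighbours from RefSeq ASM294v3. The arrays name no genome build, so no coordinates are given. Genes are named as the 5 subunits, for each list the 3 called genes with the largest changes, and the 5 features most like *exo70* and the most changed subunit, and others are marked where they appear. *pho1* was left out of its list because its identifier now belongs to a non-coding gene. Members and lists were chosen with earlier results of these data known. Alternatives tried were other scalings, an added constant of 32, filters on dim features and on less specific probe sets, another variance model, blocks for replicate number and label series, other forms of the fold change, and each array left out. Promoter motifs and protein lengths were not analysed here. A further list of genes is not reported here.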

Additional observations from a re-analysis of the deposited data

How the results depend on the processing

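The 2 decreases, *sec8* and *sec15*, passed the limma test in the same direction under every alternative that has a test, kept their sign under the 2 other forms of the fold change, which have none, and with 1 array left out their log2 fold changes ran from -2.29 to -2.01 and from -3.14 to -2.60. The count of higher subunits, 1 on the deposited scale, was 3 after centring on the median and 3 after quantile normalization, and ran from 0 to 1 with 1 array left out. The sign of *sec6* turned to 0.33 after centring and to 0.47 after quantile normalization, which by their construction raise most log2 fold changes here. Over all features, 354 higher and 1514 lower became 1155 and 1007 after centring, and 883 and 990 after quantile normalization. For the 65 genes of the other lists, 3 higher and 34 lower became 22 and 22 after centring and 16 and 18 after quantile normalization. Their higher count was 6 with the replicate block, 7 with the label series as a block and 5 without replicate 1 at both temperatures. With 1 array left out, the counts ran from 3 to 4 higher and 28 to 38 lower for these lists, and from 275 to 455 higher and 1307 to 1551 lower for all features. The replicate block changed the call of 1 subunit, *sec6*. The shift of *exo70* against the other subunits lay between 1.83 and 2.87 when each of them was left out in turn, with p = 0.1 in the exact permutation test each time, the smallest it can give. The 3 arrays per temperature limit what can pass.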
